A study of Mus musculus with 19 samples.

Results

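Potassium channel genes were examined in bulk RNA-sequencing of mouse hippocampal CA1 tissue. A gene was counted as a potassium channel gene when its symbol began with Kcn followed by letters and a number, the naming scheme for the pore-forming subunits and their dedicated auxiliary subunits. The files held 92 such genes, of which 81 reached 5 or more reads in no fewer than 10 of the 19 libraries, out of 19286 genes that passed the same filter. The other 11 (Kcna7, Kcna10, Kcne1, Kcnj1, Kcnj15, Kcnk7, Kcnk15, Kcnk16, Kcnk18, Kcnmb3 and Kcnv2) reached between 1 and 10 reads in their highest library and were not tested. The libraries came from 3 groups of male C57B/6J mice: young mice of 3 months (6 libraries), old control mice of 16.5 months (6) and old anti-miR-mix mice of 16.5 months (7). Every mouse had received lipid nanoparticles by injection into the dorsal hippocampus before CA1 was dissected. The paper trained mice with these injections in the water maze, but does not state that each sequenced mouse was among them. The particles held scrambled oligonucleotides in the young and old control mice, and inhibitors of 3 miRNAs (miR-148a-3p, miR-146a-5p, miR-181a-5p) in the old anti-miR-mix mice. No uninjected mice were among these libraries, so age and treatment were both read against injected animals.

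Potassium channels let potassium leave or enter a cell and thereby set its resting potential, shape the action potential and pace its firing. Voltage-gated Kv channels are tetramers that open on depolarisation, ether-a-go-go and Kv7 channels are slower voltage-gated relatives, inward rectifiers (Kir) hold the membrane near the potassium equilibrium, and K2P channels, whose subunits each carry a pair of pore domains, provide a background leak. A further set opens on calcium or sodium entry. In CA1 pyramidal cells the A-type current of the dendrites is carried largely by Kv4 channels with their Kcnip and Dpp partners, the M-current by Kv7 channels and the G protein-gated current by Kcnj3, Kcnj6 and Kcnj9, while astrocytes take up potassium through Kcnj10. The genes were therefore grouped into 8 classes: Kv1 to Kv4 pore subunits (15 genes), silent Kv modifiers that need a Kv2 partner (9), Kv7 (5), ether-a-go-go or EAG (8), Kir (13), K2P (10), ion-activated channels (8) and auxiliary subunits (13).

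The treatment acted on miRNAs, which pair through their seed, bases 2 to 8, with matches in 3′ untranslated regions of mRNAs and lower the output of those mRNAs. The mature mouse sequences of the 3 inhibited miRNAs (RefSeq, GRCm38.p6) are shown with the seed in capitals, because they define which channel mRNAs carry a match. These mature sequences lie at chr11:43374435-43374456 (in the gene Mir146), chr6:51269829-51269850 (in Mir148a) and, for miR-181a, at chr1:137966468-137966490 (in Mir181a-1) and chr2:38852741-38852763 (in Mir181a-2).
mmu-miR-146a-5p: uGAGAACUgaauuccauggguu
mmu-miR-148a-3p: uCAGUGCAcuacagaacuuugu
mmu-miR-181a-5p: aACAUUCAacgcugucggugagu

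The match to a seed was searched as AGTTCTC for miR-146a-5p, TGCACTG for miR-148a-3p and TGAATGT for miR-181a-5p, on the sense strand of the longest annotated 3′ untranslated region of each gene. Of the 81 channel genes, 15 (18.5%) held a miR-146a-5p match against 12.4% of 15351 genes with such a region, 9 (11.1%) held a miR-148a-3p match against 14.9%, and 18 (22.2%) held a miR-181a-5p match against 18.1%. At least 1 match of any kind was present in 28 channel genes (34.6%) and in 35.0% of all genes. The regions were longer in the channel genes, with a median of 1777 bases against 1165. Kcnh7, the Erg3 channel, held matches to all 3 miRNAs. These are shown with matches in Kcnj10 (Kir4.1) and the A-type channel Kcnd2, each as 22 bases of the sense strand with the seed match in capitals.
Kcnh7, miR-146a-5p, chr2:62697983-62698004: ttaagcacctgAGTTCTCctgt
Kcnh7, miR-148a-3p, chr2:62698181-62698202: ataaagactagTGCACTGtata
Kcnh7, miR-181a-5p, chr2:62693474-62693495: agcaagctattTGAATGTttat
Kcnj10, miR-146a-5p, chr1:172370650-172370671: tttccctctccAGTTCTCaagt
Kcnd2, miR-146a-5p, chr6:21728754-21728775: acaaggcacaaAGTTCTCtgca
Coordinates are on GRCm38, Kcnh7 being on the minus strand and Kcnj10 and Kcnd2 on the plus strand. A match is a description of letters and was not tested as a binding site.

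The libraries held between 26653511 and 38908947 gene-assigned reads. Levels are given as RPKM, reads per kilobase of exon, scaled to the normalised library total. The CA1 pyramidal markers Wfs1 (57.2 RPKM, SD 10.2, n = 19) and Fibcd1 (34.4 ± 11.2) stood above the dentate markers Prox1 (4.32 ± 1.03) and Dsp (0.551 ± 0.572) and the CA3 marker Bok (7.86 ± 1.18). Glial genes were also present, with the astrocytic Aqp4 at 28.3 RPKM and the microglial Cx3cr1 at 15.1, so levels are those of mixed tissue. In such bulk tissue, fewer cells of a type and less RNA per cell cannot be told apart. Old control replicates 5 and 6 were much closer to each other than other pairs of a group, with a chi-square per degree of freedom of 2.18 over 12780 genes against 6.10 for the next closest pair. Results that depend on counting these libraries as 1 are given with that value. The deposited log2 table had a term with 4 levels removed from it, and old control libraries occupied only levels 1, 2 and 4. Exons of 27 of the 81 channel genes overlap another annotated gene, and because the library kit does not mark strand, reads in such stretches cannot be told apart. The p-values measure the spread between libraries.

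Channel transcripts were present at a wide range of levels. Mean RPKM over the 19 libraries was above 10 for 28 channel genes, between 1 and 10 for 38 and under 1 for 15. The 5 highest genes held 29.3% of the summed RPKM of the 81 and the 20 highest held 69.6%. Kcnab2, the Kvβ2 subunit that binds Kv1 tetramers, was the highest at 114 RPKM (SD 15.5, range 89.7 to 145) and exceeded the next gene in 19 of 19 libraries. Several neighbours below it did not separate beyond their spread. Kcnj10, the glial inward rectifier, reached 43.8 ± 4.08 RPKM. The G protein-gated subunits Kcnj3 (34.8 ± 2.98) and Kcnj9 (34.4 ± 2.52) were at the same level, with Kcnj3 higher in 9 of the 19 libraries. Kcnj4 (30.8 ± 2.37), a strong inward rectifier, and Kcnip2 (30.5 ± 4.75), the Kv4 partner KChIP2, likewise exchanged order between libraries.

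**Figure D1:**
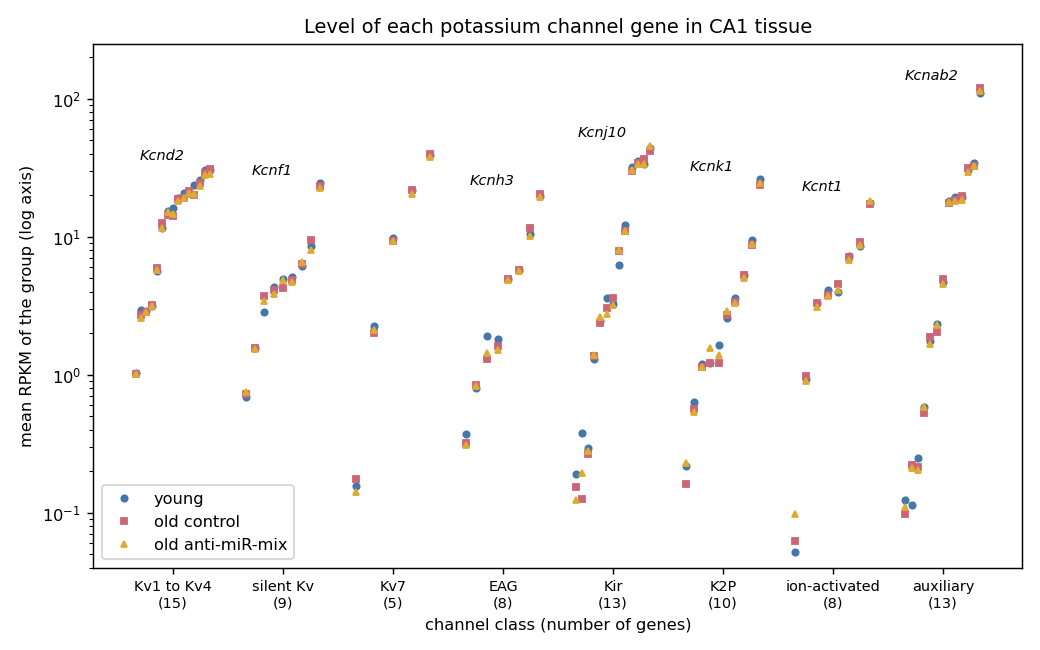
Mean RPKM of each of the 81 potassium channel genes in young mice, old control mice and old anti-miR-mix mice (1 point per gene and group, log axis), arranged by class and ordered by mean level within it, with the highest gene named in 7 of the 8 classes. Kcnab2 lies above every other gene at 114 RPKM, and the 3 group means of a gene mostly coincide, parting most visibly at genes under 1 RPKM.

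By class, auxiliary subunits made up 26.7% of the summed channel RPKM (SD 1.66 over 19 libraries) and Kv1 to Kv4 subunits 24.4% ± 1.01. Kir channels followed with 19.1% ± 0.879 and Kv7 with 7.93% ± 0.375. The smallest shares were those of silent Kv modifiers (6.36% ± 0.407), K2P (5.48% ± 0.275), ion-activated (5.05% ± 0.194) and EAG channels (4.98% ± 0.192). Kcnd2, the main Kv4 subunit, led the Kv1 to Kv4 class with 13.4% of its RPKM only, since other genes, among them Kcna2, Kcnc4, Kcnc2 and Kcnc1, were at similar levels (between 19.6 and 29.2 RPKM). Other classes were led more strongly: Kcnk1 (TWIK1) held 49.8% of K2P, Kcnab2 46.9% of the auxiliary class, Kcnh3 (Elk2) 43.5% of EAG, Kcnf1 40.7% of the silent Kv modifiers, Kcnt1, the sodium-activated Slack channel, 38.7% of the ion-activated class, and Kcnj10 25.2% of Kir. Among the ion-activated channels Kcnn2, the SK2 channel, reached 8.79 RPKM and Kcnma1, the BK channel, 7.06 RPKM.

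The summed RPKM of all 81 genes was 922 ± 21.3 in young, 915 ± 30.0 in old control and 894 ± 26.2 in old anti-miR-mix mice (SD, n = 6, 6 and 7). The 3 ranges overlapped, from 891 to 943, from 880 to 957 and from 872 to 949. Ratios of class sums between old control and young mice ran from 0.921 for K2P to 1.03 for the auxiliary class. Between old anti-miR-mix and old control mice they ran from 0.945 for EAG to 1.03 for K2P. The K2P sum was 52.1 ± 3.34 RPKM in young and 48.0 ± 1.25 in old control mice, with ranges of 48.9 to 58.0 and 46.2 to 49.2 that overlapped. Class sums were described and not tested.

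Old control mice were compared with young mice to ask which channel genes differ with age. A single channel gene, Kcnk4, passed an adjusted p of 0.05 (edgeR quasi-likelihood test, Benjamini-Hochberg adjustment over 19286 genes), and it was lower in old control mice. That is 0 of 81 higher, against 1.32% of all genes, and 1 of 81 lower (1.23%), against 1.34%. At an unadjusted p under 0.05 there were 14 channel genes (17.3%) against 18.1% of all genes. DESeq2 called 3 of the 72 channel genes to which it gave an adjusted p (Kcng2, Kcnh4 and Kcnk4; 4.17%) against 5.88% of all. The share of channel genes called was near that of all genes under each of these rules. The median log2 fold change was -0.03 over the 81 genes and 0.01 over all genes, and 49 of the 81 estimates (60.5%) were below 0 against 47.8% of all genes.

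Kcnk4 encodes TRAAK, a mechanosensitive and lipid-sensitive K2P leak channel (ENSMUSG00000024957, chr19:6923966-6934515, minus strand). Its log2 CPM (counts scaled to the normalised library total) ran from 2.66 to 3.10 in young mice, with a median of 2.86. In old control mice it ran from 2.35 to 2.56, with a median of 2.49. Every old control library lay below every young library. The old anti-miR-mix libraries spread from 2.25 to 3.01 (median 2.63) and overlapped both. The log2 fold change of old control against young was -0.42 (SE 0.11, 95% interval -0.65 to -0.20, adjusted p = 0.0402). Groups that did not overlap were found for 1 of the 81 channel genes (1.23%) and 2.54% of all genes. Exons of Kcnk4 share 587 bases on the same strand with Catsperz, a sperm cation channel subunit gene, which had a log2 fold change of -0.55 (SE 0.16, edgeR adjusted p = 0.0665) and passed the threshold with DESeq2 (0.026). Reads in the shared bases were not separated here. Markers of oligodendrocytes were also lower with age, 4 of 6 past the test with a median log2 fold change of -0.44. Their summed level was 6768 to 10715 CPM in young, 5971 to 7125 in old control and 6110 to 9053 in old anti-miR-mix mice. The part of these markers in the Kcnk4 result was not tested.

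The call of Kcnk4 lay close to the threshold, and its adjusted p ran from 0.00658 to 0.102 over the alternatives tried. With old control replicates 5 and 6 counted as 1 library its adjusted p was 0.0637, and with the removed 4-level term in the fit it was 0.0641. Leaving out any old control library gave 0.0596 to 0.0806, and leaving out young replicate 1, 3, 4, 5 or 6 gave 0.0858, 0.062, 0.0963, 0.0612 and 0.0558. The fold change itself stayed between -0.47 and -0.38 under all 28 alternatives. With DESeq2 the adjusted p was 0.00776.

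**Figure D2:**
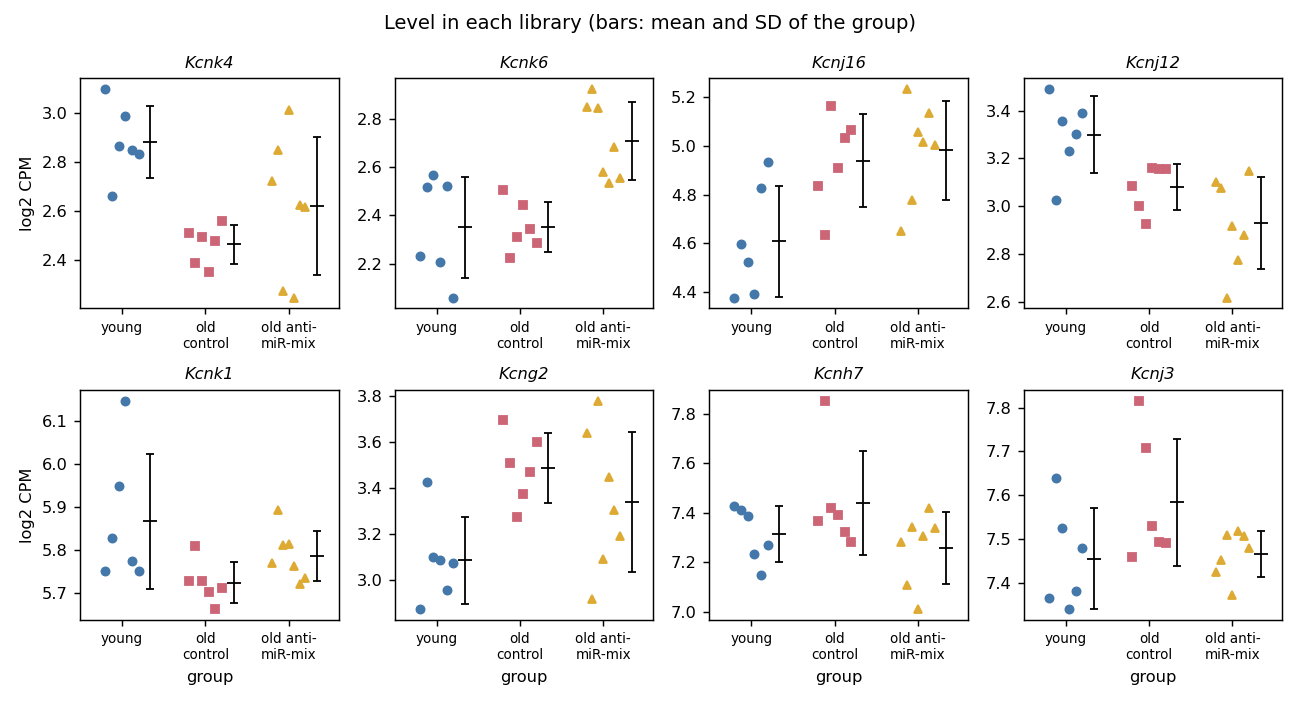
Log2 CPM of 8 potassium channel genes in every library of the young (circles), old control (squares) and old anti-miR-mix (triangles) groups, with the mean and SD of each group as a bar beside the points. Kcnk4 separates young from old control libraries and Kcnk6 separates old control from old anti-miR-mix libraries, whereas the groups overlap for the other 6 genes.

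The next lowest p-values with age belonged to Kcng2 and Kcnj16. Kcng2, a silent modifier of Kv2 channels, ran from 2.87 to 3.42 log2 CPM (median 3.08) in young mice and from 3.27 to 3.69 (median 3.49) in old control mice. Young replicate 2 was the only young library within the old control range. The log2 fold change of Kcng2 was 0.40 (SE 0.12, edgeR adjusted p = 0.0811). It passed the threshold with DESeq2 (0.0322), in a fit of these groups alone (0.0275) and without young replicate 2 (0.0363). These were 3 of 28 alternatives, over which its adjusted p ran from 0.0275 to 0.181. With old control replicates 5 and 6 counted as 1 library the edgeR adjusted p was 0.131, and with the 4-level term in the fit 0.104. Kcnj16, the Kir5.1 subunit that combines with Kcnj10 in glia, had values of 4.38 to 4.93 (median 4.56) in young and 4.63 to 5.16 (median 4.97) in old control mice. These ranges overlapped, with a log2 fold change of 0.33 (SE 0.11, edgeR adjusted p = 0.103). It passed the threshold with the 4-level term in the fit, with an adjusted p of 0.0241 and the same fold change. Kcnj16 passed in 3 of 28 alternatives, over which its adjusted p ran from 0.0241 to 0.229. With old control replicates 5 and 6 counted as 1 library the edgeR adjusted p was 0.176. Kcnj10 itself had a log2 fold change of -0.07 (interval -0.21 to 0.07).

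By class, the age estimates were below 0 for 9 of 10 K2P genes, with a median of -0.11, of which Kcnk4 passed the test. Kcnk1, the most abundant K2P gene, had a log2 fold change of -0.15 (SE 0.05, edgeR adjusted p = 0.143). Among Kv1 to Kv4 genes 10 of 15 estimates were below 0 (median -0.03), and Kcna1, an axonal Kv1 subunit, had the value -0.20 (SE 0.08, edgeR adjusted p = 0.175). In the EAG class Kcnh4 had an estimate of -0.57 (SE 0.19, edgeR adjusted p = 0.115), while the class median was 0.00. The medians of the Kv7 (0.01), ion-activated (0.04) and silent Kv (0.00) classes were at 0 or near it, as were those of Kir (-0.07) and auxiliary (-0.04) genes.

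Some abundant neuronal channels had small age estimates with narrow intervals. Age estimates with their 95% intervals were 0.01 (-0.17 to 0.19) for Kcnq3, 0.03 (-0.13 to 0.20) for Kcnd2, 0.05 (-0.03 to 0.13) for Kcnc2 and -0.02 (-0.16 to 0.11) for Kcnma1. Others were not as small: the lowest estimate in the Kv1 to Kv4 class was -0.24, and Kcna1 and Kcnj3 had an unadjusted p under 0.05 in edgeR. For 64 of the 81 channel genes (79.0%) the interval lay entirely within ±0.5 on the log2 scale, that is within 1.41-fold, against 69.3% of all genes. It lay within ±0.25 for 36 channel genes. For the remaining genes, mostly of low abundance, the interval reached beyond these sizes at this depth and number of libraries.

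**Figure D3:**
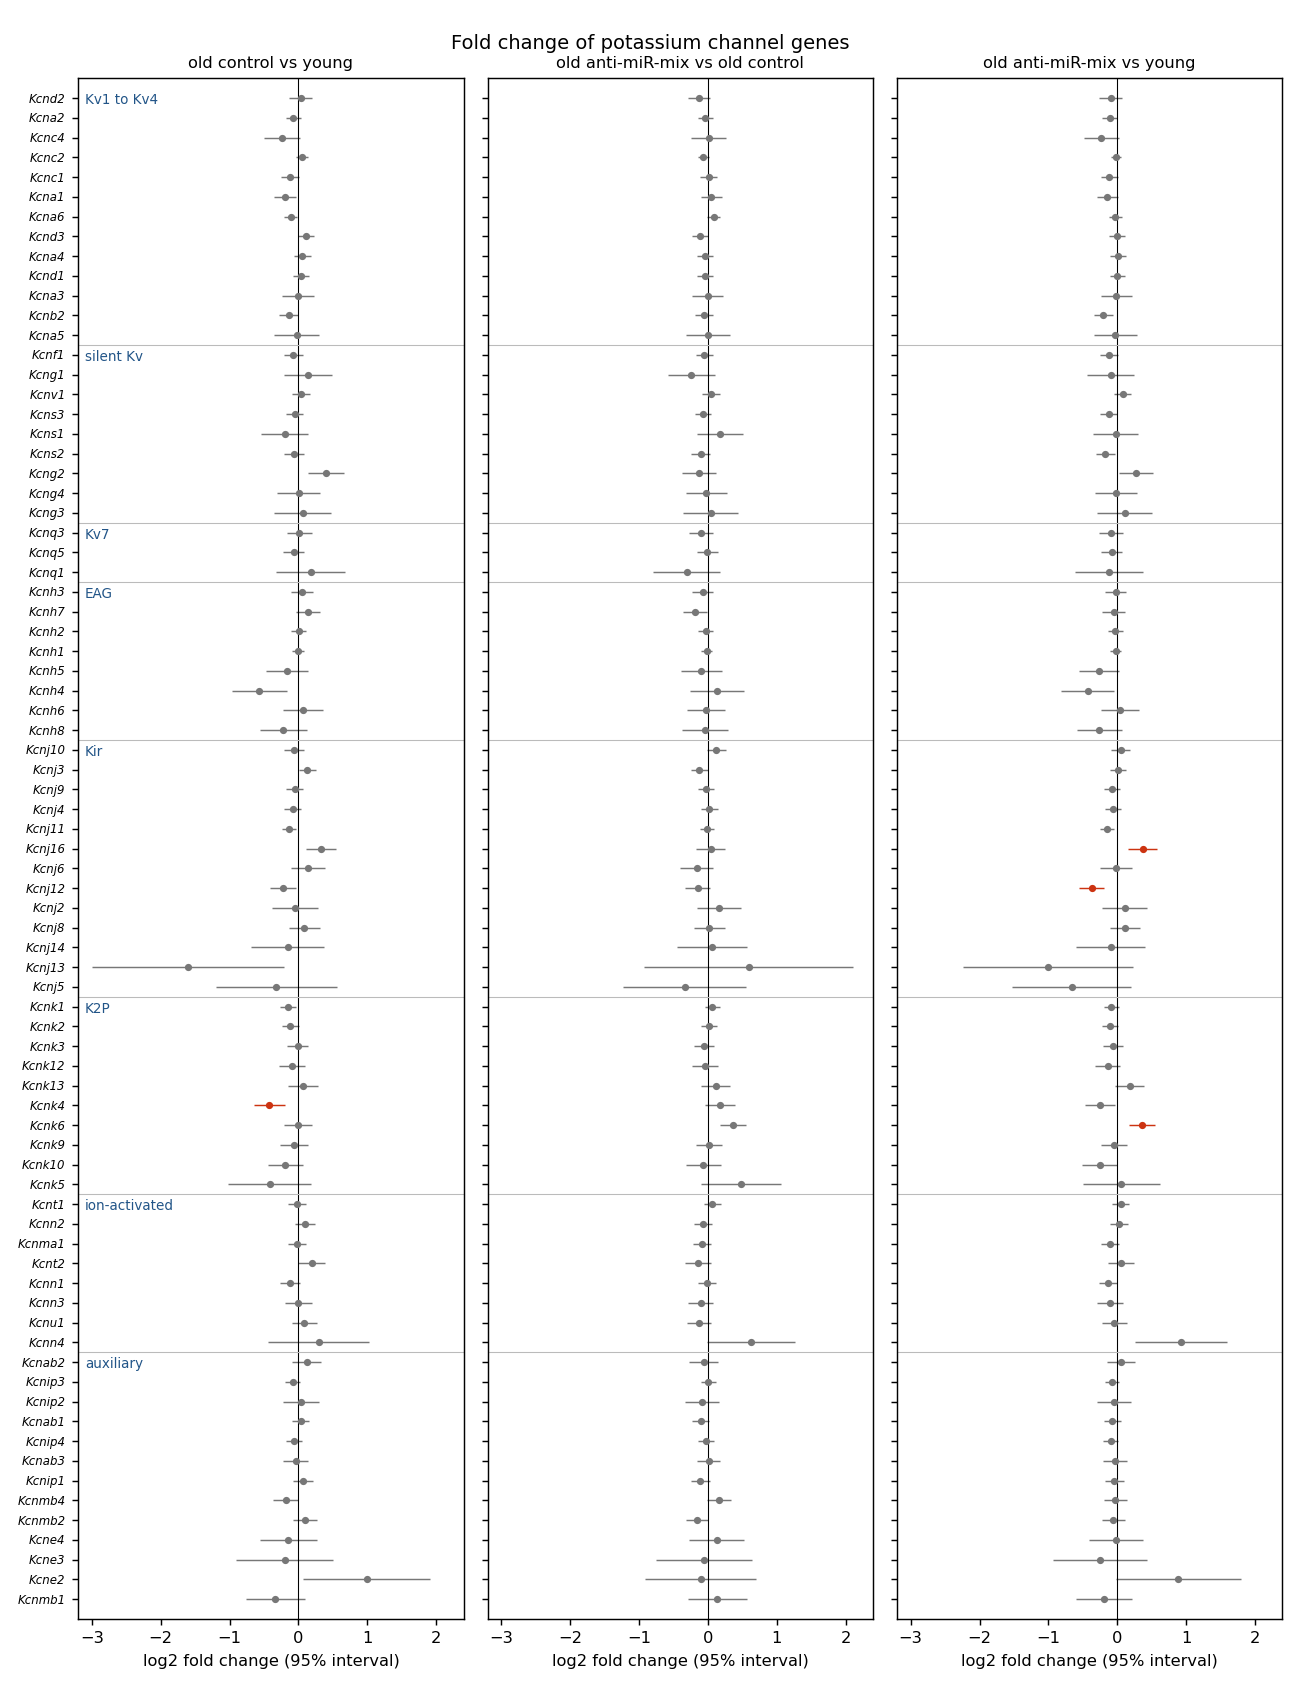
Log2 fold change with its 95% interval for potassium channel genes in the 3 comparisons, grouped by class and ordered by mean level within a class, with genes past an adjusted p of 0.05 in red. Red points are Kcnk4 in the age comparison, none in the treatment comparison, and Kcnj16, Kcnj12 and Kcnk6 in old anti-miR-mix against young mice; the widest intervals belong to Kcnj13, Kcnj5, Kcnn4 and Kcne2.

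Old anti-miR-mix mice were compared with old control mice to ask what inhibition of the 3 miRNAs did to channel transcripts. No channel gene passed the adjusted p of 0.05 in edgeR: 0 of 81 were higher against 0.669% of all genes, and 0 of 81 were lower against 0% of all genes. At an unadjusted p under 0.05 there were 3 channel genes (3.70%), Kcnk6, Kcnh7 and Kcnj3, against 10.5% of all genes. DESeq2 called 1 of 81 (1.23%), Kcnk6, against 1.47% of all. The median log2 fold change was -0.03 over the channel genes and 0.00 over all genes. The 95% interval lay within ±0.5 for 67 of the 81 genes (82.7%) and within ±0.25 for 40.

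Kcnk6, the K2P channel TWIK2 (ENSMUSG00000046410, chr7:29221926-29232515, minus strand), had the lowest p of the channel genes. It was present at a low level, 1.35 RPKM, with 129 to 277 reads per library. Its log2 CPM was 2.06 to 2.57 (median 2.37) in young, 2.22 to 2.51 (median 2.33) in old control and 2.54 to 2.93 (median 2.68) in old anti-miR-mix mice. All 7 treated libraries lay above all 6 old control libraries, and the treated and young ranges overlapped. Groups did not overlap for 1 of the 81 channel genes (1.23%) and for 0.498% of all genes. The log2 fold change was 0.36 (SE 0.09, interval 0.17 to 0.56) with an adjusted p of 0.0781, or 0.0208 with DESeq2. With the 4-level term in the fit the adjusted p was 0.325, and over all 28 alternatives it ran from 0.0208 to 0.534 while the fold change stayed between 0.33 and 0.40.

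Kcnk6 has been described in macrophages and microglia, where it carries potassium efflux. With treatment the summed level of the 6 microglial markers moved in the same direction. It was 310 to 391 CPM in young, 384 to 451 in old control and 441 to 583 in old anti-miR-mix mice. With age the markers had a median log2 fold change of 0.21, with 1 of the 6 past the test. The Kcnk6 level differed little between young and old control mice. Of these markers 3 passed the test as higher with treatment and 5 in treated against young mice. The part of the marker change in the Kcnk6 result was not tested. Other channel genes described in microglia, chosen after their values were seen, did not pass the test. Kcnk13, the microglial THIK1 leak channel, had a treatment log2 fold change of 0.11 (SE 0.10, edgeR adjusted p = 0.757), and Kcna3, the Kv1.3 channel, -0.0042 (SE 0.11). Kcnn4, the KCa3.1 channel, was counted with 4 to 30 reads per library and had the value 0.63 (SE 0.31, edgeR adjusted p = 0.488).

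Kcnh7 and Kcnj3 had estimates below 0 that did not pass the test. Kcnh7 had 7.28 to 7.85 log2 CPM (median 7.38) in old control and 7.01 to 7.42 (median 7.31) in treated mice. The ranges overlapped, and the top of the old control range was 1 library, replicate 2. Its log2 fold change was -0.19 (SE 0.08, edgeR adjusted p = 0.41), and without that replicate it was -0.09. Kcnj3, the GIRK1 subunit, had 7.46 to 7.82 (median 7.51) in old control and 7.37 to 7.52 (median 7.48) in treated mice, which gave a log2 fold change of -0.12 (SE 0.06, edgeR adjusted p = 0.459). Old control replicate 2 was again the highest, and without it the value was -0.07. Kcnj3 shares 1621 exonic bases with a gene on the opposite strand, Gm26794.

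Channel genes with a seed match of an inhibited miRNA were described apart. The 28 genes with at least 1 match had a median treatment log2 fold change of -0.06, and those without had -0.03. The corresponding medians over all genes were -0.01 and 0.01. For miR-146a-5p 5 of the 15 genes with a match were above 0, for miR-148a-3p 3 of 9, and for miR-181a-5p 4 of 18. With a match of any kind it was 10 of 28. Of all 81 channel genes, with or without a match, 31 were above 0, and of all 19286 genes tested 9674. None of the 28 passed the test with treatment. Kcnh7, whose 3 sites are shown above, had the value -0.19 given for it, Kcnj10 had 0.12 (-0.02 to 0.26) and Kcnd2 had -0.13 (-0.29 to 0.03). Among match-bearing Kv7 subunits the estimates were -0.10 for Kcnq3 and -0.01 for Kcnq5. Kcnk6 and Kcnk4 had no match in their annotated regions of 3110 and 406 bases.

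Old anti-miR-mix mice were also compared with young mice, which differ in both age and treatment. Here 4 channel genes passed the test: Kcnk6 and Kcnj16 were higher (2 of 81, 2.47%, against 4.57% of all genes) and Kcnj12 was among those lower (2 of 81, 2.47%, against 1.63%). At an unadjusted p under 0.05 there were 14 (17.3%) against 19.6%, and DESeq2 called 5 (6.17%), these 4 and Kcnb2, against 7.89%. In none of the 81 did the groups separate without overlap, as they did in 2.42% of all genes. Estimates were below 0 for 60 of the 81 channel genes (74.1%) and for 49.0% of all genes, with medians of -0.06 and 0.00. This comparison shares its libraries with those above and is not independent of them.

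Kcnj12, the strong inward rectifier Kir2.2 (ENSMUSG00000042529, chr11:61022564-61071131), had the lowest adjusted p of the 4. Its log2 CPM was 3.02 to 3.49 (median 3.33) in young mice, 2.93 to 3.16 (median 3.12) in old control mice and 2.62 to 3.15 (median 2.92) in old anti-miR-mix mice. Only young replicate 2 lay within the range of the treated libraries. The log2 fold change of treated against young was -0.37 (SE 0.09, edgeR adjusted p = 0.00888), of old control against young -0.22 (SE 0.09, edgeR adjusted p = 0.176) and of treated against old control -0.15 (SE 0.09, edgeR adjusted p = 0.572). The call held under all 28 alternatives, with adjusted p between 0.000594 and 0.0303. The paralogous Kcnj2 and Kcnj4 had values of 0.11 (SE 0.16) and -0.06 in the same comparison.

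Kcnj16 was 4.65 to 5.23 log2 CPM (median 5.02) in treated mice against 4.38 to 4.93 (median 4.56) in young mice. The ranges overlapped. Its log2 fold change was 0.37 (SE 0.10, edgeR adjusted p = 0.0344), and the value between treated and old control mice was 0.04 (SE 0.10). Of 6 astrocyte markers 2 passed the test as higher in treated than in young mice, and the median log2 fold change of the 6 was 0.14. Their summed level was 5286 to 6749 CPM in treated and 5155 to 5696 in young mice. The part of these markers in the Kcnj16 result was not tested. Leaving out young replicate 1, 2, 3 or 4 or old anti-miR-mix replicate 2, 4, 6 or 7 raised the adjusted p to between 0.0529 and 0.0893. Kcnk6 had a log2 fold change of 0.36 (SE 0.09, edgeR adjusted p = 0.021) against young mice, and without young replicate 1, 4 or 6 its adjusted p was 0.0541, 0.0572 and 0.063. Its age estimate was -0.0036 (SE 0.10).

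Kcnb2, a Kv2 delayed rectifier subunit, had a log2 fold change of -0.20 (SE 0.06, edgeR adjusted p = 0.0707) in treated against young mice and passed the threshold with DESeq2 (0.0408).

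The channels of lowest abundance varied most between libraries of a group. The within-group SD of log2 CPM had a median of 0.158 over the 81 genes, was under 0.25 for 61 and over 0.5 for 5: Kcnj13, Kcnj5, Kcne2, Kcne3 and Kcnn4. Kcnj13 and Kcne2 are channel genes of the choroid plexus epithelium. Kcnj13 was counted with 2 to 36 reads in young, 1 to 8 in old control and 0 to 20 in treated mice, and its exons share 623 bases with Gigyf2 on the opposite strand. Its age log2 fold change was -1.60 (SE 0.67, edgeR adjusted p = 0.204). Kcne2 had 4 to 10 reads in young, 6 to 20 in old control and 4 to 28 in treated mice, and an age log2 fold change of 0.99 (SE 0.45, edgeR adjusted p = 0.24).

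The 3 libraries with most Kcne2 reads were old control replicates 5 and 6 and old anti-miR-mix replicate 2, with 18, 20 and 28. The summed level of the 6 tested choroid plexus markers was also highest in these, at 80.8, 85.3 and 105 CPM, and was 16.9 to 45.7 in the other 16. Ttr, the most abundant of the markers, ran from 0.495 to 72.4 RPKM. The part of these markers in the Kcne2 values was not tested. Kcnj13 did not follow the same order: young replicate 6 had the most reads, 36, at a marker level of 23.3 CPM, and old control replicates 5 and 6 had 8 each. Kcnj5, the GIRK4 subunit, had 2 to 8 reads in old control replicate 2 and old anti-miR-mix replicates 1, 3 and 6 and 12 to 42 in the other 15 libraries.

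Some channel genes followed the level of CA1 pyramidal markers from library to library. The marker level was the mean log2 CPM of Wfs1, Fibcd1, Mpped1, Pou3f1 and Man1a. It was set against each of the 81 genes, and against all 19281 tested genes other than these markers, over 18 libraries, with old control replicates 5 and 6 averaged. By permutation tests of Pearson's r with 100000 draws and Benjamini-Hochberg adjustment over the 19281 relations, 19 channel genes (23.5%) passed 0.05 against 12% of all genes. A positive coefficient was found in 11 of them (13.6% of the 81, against 7.31% of all genes) and a negative one in 8 (9.88% against 4.74%). By Spearman's rho 17 passed (21% against 11.7%), and all 17 were among the 19. All 19 had the same sign of r within each of the 3 groups.

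**Figure D4:**
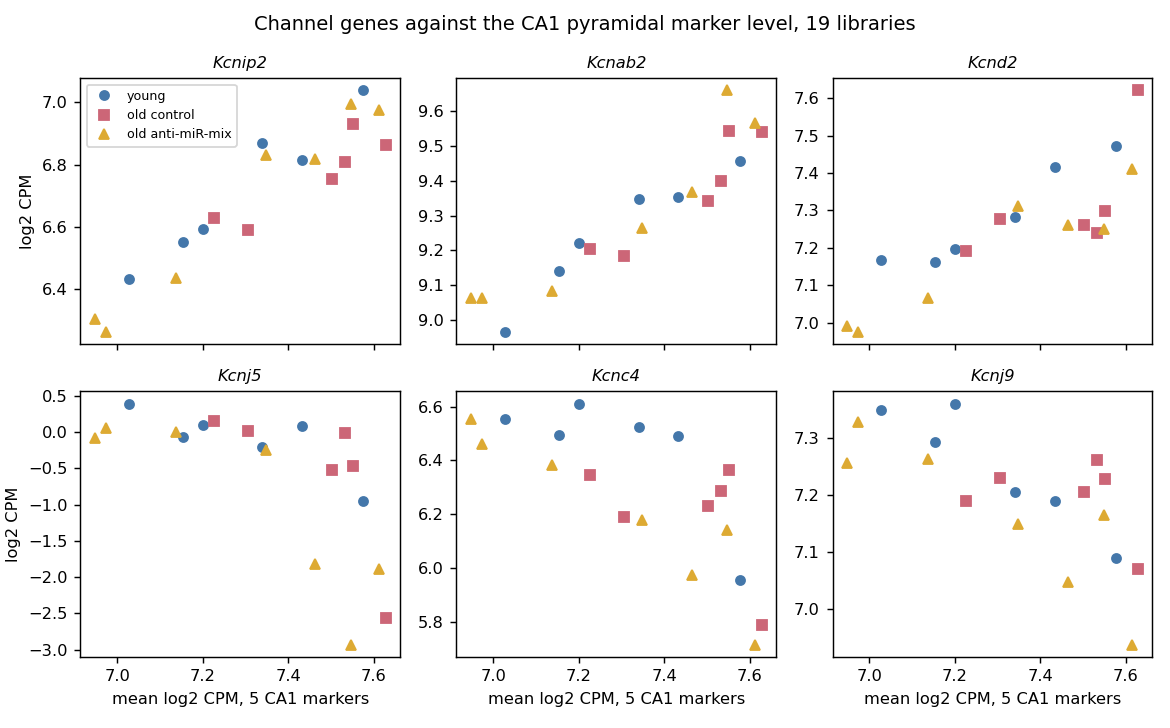
Log2 CPM of 6 potassium channel genes against the mean log2 CPM of 5 CA1 pyramidal markers, 1 point per library (19 libraries) with the 3 groups marked by colour and shape. Kcnip2, Kcnab2 and Kcnd2 rise with the marker level and Kcnj5, Kcnc4 and Kcnj9 fall with it, in each of the 3 groups.

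Among the closest followers were subunits abundant in pyramidal cells. For Kcnip2 Pearson's r was 0.944 and Spearman's rho 0.903 (permutation p = 1e-05 for each, the smallest the draws can give, adjusted 0.000583 and 0.000636). Within groups r was 0.972 in young, 0.902 in old control and 0.982 in treated mice, and it was 0.913 without the 2 libraries farthest from the median marker level. Kcnab2 had r = 0.937 and rho = 0.953, and Kcnn2 r = 0.917 and rho = 0.911, each with permutation p = 1e-05 for r and for rho. Kcnd2 followed with r = 0.856 (permutation p = 1e-05) and rho = 0.862 (permutation p = 6e-05). Without the 2 farthest libraries r was 0.943, 0.903 and 0.773 for Kcnab2, Kcnn2 and Kcnd2.

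In the other direction, Kcna6, a Kv1 subunit, had r = -0.766 (permutation p = 0.0002, adjusted 0.00456) and rho = -0.818 (permutation p = 7e-05). Kcnj9 had r = -0.757 (permutation p = 0.00021, adjusted 0.00475) and rho = -0.802 (permutation p = 0.00014). Kcnc4, the Kv3.4 channel, had r = -0.751 (permutation p = 0.0003, adjusted 0.00607) and rho = -0.787 (permutation p = 0.00018). For Kcnj5 r was -0.695 (permutation p = 0.00087, adjusted 0.0128) and rho -0.773 (permutation p = 0.00027). Without the 2 farthest libraries r was -0.714, -0.762, -0.746 and -0.731 for Kcna6, Kcnj9, Kcnc4 and Kcnj5.

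After subtracting the mean of each level of the removed 4-level term, r was 0.943 for Kcnip2, 0.950 for Kcnab2, 0.913 for Kcnn2 and 0.840 for Kcnd2, and -0.737 for Kcna6, -0.837 for Kcnj9, -0.790 for Kcnc4 and -0.629 for Kcnj5. Each level held too few libraries for a value of its own. All genes were scaled to the same library total, and the markers and channels were read from the same libraries. CA3 and thalamus markers also varied between libraries. Old anti-miR-mix replicate 2, low in CA1 markers, had summed levels of 569.8 and 145.0 CPM. Replicate 3 of that group, high in CA1 markers, had 448.5 and 120.2. Old control replicate 4, lowest of its group in CA1 markers, had 472.9 and 136.2, in a group range of 456.8 to 539.2 for CA3. Dentate markers varied too, with summed levels of 46.0 to 117 CPM over all libraries. Their level was 55.8 CPM in old anti-miR-mix replicate 2, 93.7 in replicate 3 of that group and 81.0 in old control replicate 4. The part of regional composition in the relations to the CA1 marker level was not tested.

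Partners and regulators of the channels were read from a separate list of 19 genes, of which 18 were tested. None passed the test in edgeR in any of the 3 comparisons. DESeq2 called 2 with age, Hcn3 and Abcc8, and 1 in each of the other comparisons. At an unadjusted p under 0.05 in edgeR there were 5 with age (27.8%, against 18.1% of all genes), 6 with treatment (33.3% against 10.5%) and 6 in treated against young mice (33.3% against 19.6%), and the lowest adjusted p-values were 0.0685, 0.0995 and 0.0877. Hcn3, a pacemaker channel, had a log2 fold change of -0.19 (SE 0.06, edgeR adjusted p = 0.0685) with age, and Abcc8, the SUR1 partner of the ATP-sensitive channel Kcnj11, had -0.26 (SE 0.08, edgeR adjusted p = 0.0834). Kcnj11 had an age log2 fold change of -0.14 (SE 0.05, edgeR adjusted p = 0.148). The Kv4 partners Dpp6 and Dpp10 had age values of 0.11 (SE 0.06) and -0.24 (SE 0.14).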

How the data were processed

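RNA of dissected CA1 was sequenced from 19 libraries as 50 bp single-end reads with a kit that does not mark strand. The authors aligned reads to mm10 with STAR (2.5.2b) and deposited raw counts per gene from featureCounts (Subread 1.5.1), which were used for every test. The authors also deposited a log2 table of 18761 genes from which a per-gene linear term with levels 1 to 4 had been subtracted. It served only to read that term for each library. Groups followed the descriptions in the labels, because titles of control libraries also carry the treatment's name. Gene symbols, exon lengths and coordinates came from GENCODE M21 (GRCm38). Genes with at least 5 reads in 50% of libraries were tested with edgeR (4.0.16) in R 4.3.3, using TMM factors, a quasi-likelihood fit of the 3 groups and Benjamini-Hochberg adjustment over all 19286 genes. Log2 CPM used a prior count of 2, and RPKM the summed exon length. Both were scaled to library totals normalised by the TMM factors. DESeq2 (1.42.0) was an alternative. On simulated counts for the age comparison (19286 genes), 77 of 100 changes of 0.5 on the log2 scale and 100 of 100 of 1 were recovered. There were 9 false calls. The changes were placed in genes with a mean above 1 CPM. The libraries were drawn independently, without the 4-level term or a close pair of libraries, so recovery in the real data can be lower. Named genes were those past the threshold (the 3 lowest p where fewer than 3 passed), those with non-overlapping groups, the most abundant of each class and a fixed list of well-described channels. Genes of the CA1 relations and the microglial set were chosen after their values were seen. The members and lists were chosen with earlier results of these data known. No column was left unassigned (0). Some genes, including 1 of the CA1 marker list that was left out of the marker level, are counted in totals where measured but not reported here.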

Additional observations from a re-analysis of the deposited data

Results flagged for a closer look

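Among 28 named channel genes in 3 groups (84 sets of values), 6 had an extreme library whose gap to its nearest neighbour took an unusually large share of the range (Dixon's criterion), where chance gives about 1 in 20 sets. In old control replicate 2, 5 of the 6 were found. Kcnd2 was at 7.62 log2 CPM there against 7.19 to 7.30 in the other old control libraries, Kcnh7 at 7.85 against 7.28 to 7.42, Kcnip4 at 6.37 against 5.97 to 6.10 and Kcnq3 at 8.64 against 8.20 to 8.34. Kcnj9 was at 7.07 there, below the other libraries at 7.19 to 7.26. Kcnc1 was at 7.36 in young replicate 2 against 7.61 to 7.73 in the other young libraries.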

How the results depend on the processing

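Settings were changed singly. With age, 0 channel genes were called higher and 1 lower. DESeq2 gave 1 and 2, a fit of the 2 groups alone gave 1 higher, and the removed 4-level term gave 1 higher as a factor or as a linear term, with 0 lower as a factor. No filter on low counts, or old control replicates 5 and 6 as 1 library, gave 0 lower. That library with the 4-level factor, added after the data were seen, gave 1 higher and 0 lower. Of all genes, 514 were called with age in the main fit. Other settings and left-out libraries gave 214 to 914. With treatment, 0 channel genes were called in each direction under every setting except DESeq2 (1 higher). Of all genes, 129 were called in the main fit, 9 with the 4-level factor and 6 with replicates 5 and 6 merged as well. Leaving out single libraries gave 24 to 247 of all genes. A count of 0 channel genes was near the share of all genes called. In treated against young mice 2 channel genes were higher and 2 lower, with 1196 of all genes called. The 2 groups alone gave 0 higher and 1 lower (890 of all genes). No filter gave 1 lower (930), as did replicates 5 and 6 as 1 library (1102). The latter with the 4-level factor gave 1 higher (1075). Leaving out single libraries gave 0 to 1 higher and 0 to 1 lower with age, 0 and 0 with treatment, and 0 to 2 higher and 1 to 4 lower in treated against young mice. The upper limit of 4 was reached without young replicate 2 (Kcnb2, Kcnj11 and Kcnj12 among them). Median fold changes of the channel genes then ran from -0.063 to -0.022, from -0.045 to -0.017 and from -0.075 to -0.051. No sign changed under any setting for Kcnk4, Kcng2 and Kcnj16 with age, Kcnk6, Kcnh7 and Kcnj3 with treatment, or Kcnj12, Kcnk6 and Kcnj16 in treated against young mice. The treatment value of Kcna3, near 0, was 0.047 with the 4-level factor.

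Deviations from the group means correlated between -0.17 and 0.214 for the 18 same-numbered pairs, with a median of 0.053 and 6 over 0.1. For the 102 pairs of other numbers the median was -0.010, with 15 over 0.1. The replicate numbers thus showed no strong pairing of the libraries, and a weak one was not tested. With the replicate number as a block, 1 channel gene was lower with age (Kcnh4 in place of Kcnk4, whose adjusted p was 0.0502). In treated against young mice 1 was lower (Kcnj12), and no other count of channel genes moved. Over all genes the block gave 651 calls with age and 249 with treatment, against 514 and 129 without it.

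Without division by exon length, shares of the summed CPM were 28.6% for Kv1 to Kv4, 4.26% for silent Kv, 17.6% for Kv7, 6.07% for EAG, 12.9% for Kir, 2.86% for K2P, 7.48% for ion-activated and 20.2% for auxiliary genes. Depth limited the genes of fewest reads, Kcnj13, Kcnj5, Kcne2, Kcne3 and Kcnn4.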
